A study of Arabidopsis thaliana with 6 samples.

Results

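The small (40S) subunit of the cytosolic ribosome of *A. thaliana* is built from proteins that are each encoded by several nuclear genes. This account follows 60 of these genes, the listed paralogs of 23 families from Sa and S2 to S21 (S3a and S15a included), among the 37184 gene identifiers counted in the series. They form a fixed list of gene identifiers, set by protein family and not by a threshold on a measured value, and each was read as a paralog of its own. The libraries came from whole seedlings 14 days old, grown on half-strength MS with sucrose with 16 h of light a day at 22 °C in the light and 19 °C in the dark. WT was the accession Col-0 (3 libraries), and *nol12-4* was a single T-DNA insertion line of *AtNOL12* (AT1G11240), the gene of a nucleolar protein of pre-rRNA processing, in the same background (3 libraries); no treatment of either group is given in the labels. Whether the replicates of a genotype came from separate plates or sowings was not given in the labels, so p-values measure the spread between these libraries only. The deposited count of *AtNOL12*, summed over all exons of the gene, ranged from 642 to 894 counts in WT and from 770 to 2142 in *nol12-4*, was not lower in the mutant and does not check the labels, so *nol12-4* stands throughout for the libraries labelled so.

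The 40S subunit carries the 18S rRNA, binds the mRNA and hosts the pairing of codon and anticodon. Its proteins sit either in the head, which swivels as tRNAs move, or in the body and platform, which hold the mRNA entry and exit sites. Plants keep most of these proteins as small families of similar paralogs, and in *A. thaliana* the loss of a single paralog is known for pointed leaves or arrested embryos, as the gene names *POINTED FIRST LEAF* (*PFL*) and *EMBRYO DEFECTIVE* (*EMB*) record. Ribosomal protein mRNAs are abundant in dividing tissue.

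The 6 libraries held 56627497 to 75001252 counts on genes. Organelle genomes supplied 50.8 to 56.6% of them in WT and 47.0 to 53.4% in *nol12-4*, and 10.3 to 12.1% of read pairs aligned to more than 1 place and were not counted. Library values are listed for replicates 1, 2 and 3 in this order. The libraries of a genotype were not alike in all respects. Transcripts of *CCA1*, a morning gene of the circadian clock, stood at 96.8, 94.1 and 2.44 CPM (counts normalized for depth with TMM factors) in *nol12-4* and at no more than 3.52 CPM in WT, so that *nol12-4* replicate 3 was at the WT level. Across the tested genes, *nol12-4* replicate 3 had a correlation of log2 CPM with WT replicate 2 (0.962) that was above those with *nol12-4* replicate 1 (0.957) and replicate 2 (0.955). WT replicate 3 had a higher median of leaf photosynthesis genes (0.61 on the log2 scale above the WT mean) and a lower median of root genes (−0.54) than WT replicates 1 and 2. Estimates that moved by more than 1.5 times without WT replicate 3 are given with and without it.

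The 40S paralogs were higher in *nol12-4* as a body. Of the 60 genes, 59 passed the filter on low counts, and all 59 had a higher fitted level in *nol12-4* than in WT, against 49% of the 21705 genes tested; the estimate of *RPS18C* changed sign with offsets for GC content and length, and those of AT2G41840 and *RPS10B* without *nol12-4* replicate 2. Their median log2 fold change was 0.52, a ratio of 1.44, with quartiles of 0.39 and 0.64, while the median of all tested genes was −0.0091. The single values ran from 0.077 for *RPS18C* (AT4G09800) to 2.22 for the S8 paralog AT5G59240, which was also the single member above 1. A log2 fold change above 0.5 was found for 34 members (57.6%), against 18.7% of all tested genes. In bulk seedlings, more cells of a type that makes these mRNAs and more mRNA in each cell cannot be told apart.

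The shift was present in each mutant library. Each member's log2 CPM was set against its average over the WT libraries, and the median of these deviations was −0.057, −0.037 and 0.083 in WT and 0.40, 0.62 and 0.52 in *nol12-4*. The member median of *nol12-4* replicate 3, whose clock genes stood near the WT level, lay between those of the other mutant libraries. This is 1 library, and the part of the time of sampling was not tested. Together the members took 0.329, 0.344 and 0.408% of all counts in WT and 0.479, 0.584 and 0.573% in *nol12-4*. With organelle genes left out of the total, these shares were 0.758 to 0.828% in WT and 1.03 to 1.13% in *nol12-4*, and the genotypes did not overlap on either scale.

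**Figure D1:**
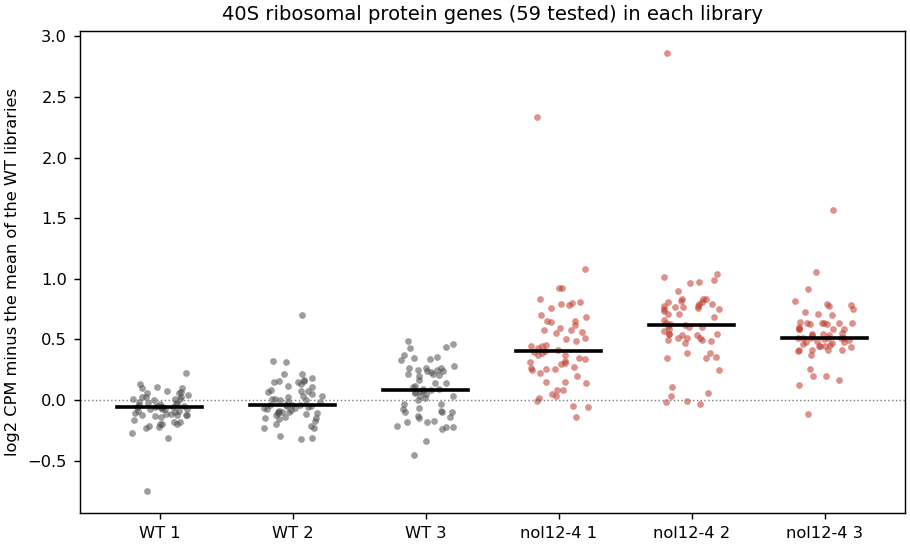
Each point is 1 of the 59 tested 40S genes, as log2 CPM minus its mean in the 3 WT libraries (vertical axis), in each of the 6 libraries (horizontal axis; grey WT, red *nol12-4*), and bars mark medians. The medians lie between −0.057 and 0.083 in WT and between 0.40 and 0.62 in *nol12-4*; the highest point of each *nol12-4* library is the S8 paralog AT5G59240.

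Taken singly, no paralog passed the adjusted threshold in edgeR and 27 did in DESeq2. By edgeR's quasi-likelihood test with the Benjamini-Hochberg adjustment over all genes, 0 of 59 members had an adjusted p under 0.05, against 0.226% of all genes called higher and 0.0691% called lower. The smallest member value was 0.0617, and 19 members were under 0.1. Without adjustment, 39 members were higher at p under 0.05 (66.1%, against 12.1% of all genes) and 0 were lower (against 7.91%). DESeq2, the tool of the study, called 27 of the 60 members higher at an adjusted p under 0.05 (45.0%, against 5.5% of all genes) and 0 lower (against 2.85%), and limma-voom called 0 (against 0.318% of all genes called higher) with 40 members higher at an unadjusted p under 0.05 (against 11.8%). All 27 DESeq2 calls had an unadjusted edgeR p under 0.05, and they fell in 19 of the 23 families.

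The DESeq2 count turned on single libraries, in fits added after the data had been seen. With WT replicate 1, 2 or 3 left out it was 7 (against 2.47% of all genes), 13 (against 4.22%) and 40 (against 5.99%). Leaving out a mutant library gave 16 (against 2.45%), 10 (against 2.05%) and 24 (against 7.39%). edgeR called 7 members when *nol12-4* replicate 3 was left out (against 4.71%), 0 when any other library was (against 0 to 0.812%), and 6 with scaling by library size alone (against 1.73%). In 6 members DESeq2 made the call with all libraries and without each library in turn. These were AT3G53870 (S3), *RPS6* (AT4G31700), AT3G52580 (S14), AT3G10610 (S17), *PFL* (AT1G22780, S18) and AT5G61170 (S19). The highest DESeq2 adjusted p of a gene over these fits ran from 0.0177 (AT5G61170) to 0.0468 (AT3G53870). For AT3G53870 and *PFL* (0.0453) it was close to the threshold.

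Levels of the genotypes did not overlap for 42 members, all with the 3 *nol12-4* libraries above the 3 WT libraries (71.2%, against 14.5% of all genes), and 0 members lay below WT in this way (against 11.6%). In 17 tested members the genotypes overlapped, and in 13 of these WT replicate 3 was the highest WT library. With WT replicate 3 left out, 54 members lay above the remaining WT libraries (22.2% of all genes did), and with WT replicate 1 or 2 left out 42 and 43 did (16.7% and 19.4% of all genes). Leaving a library out can only keep or raise such a count.

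Single estimates leaned on single libraries in a part of the members. In 15 of the 59, leaving out 1 library moved the log2 fold change by more than 1.5 times, 9 of them without WT replicate 3 and 9 without *nol12-4* replicate 2. *nol12-4* replicate 3 did so in 4 members: without it the estimate was 0.013 for *RPS18C* (AT4G09800), 0.019 for AT3G02560 (S7), 0.062 for AT5G09510 (S15) and 0.50 for *RPS10B* (AT5G41520). The other 44 members, among them all 6 that DESeq2 called in each of its fits, stayed within 1.5 times.

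**Figure D2:**
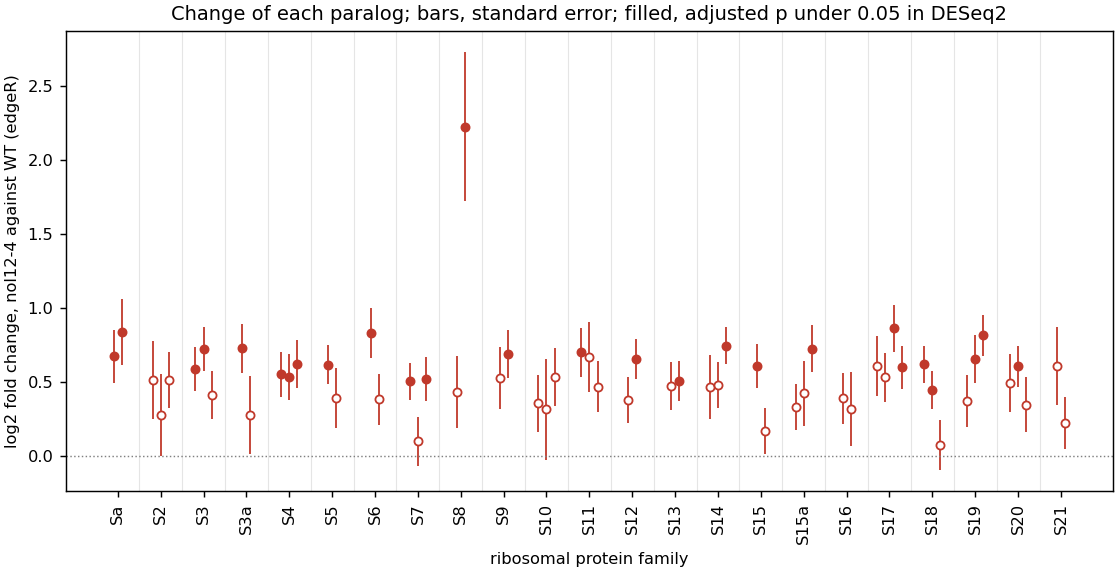
The log2 fold change of each tested paralog (*nol12-4* against WT, edgeR; vertical axis) is drawn with its standard error for the 23 families (horizontal axis), with paralogs of a family side by side in order of gene identifier. Filled points had an adjusted p under 0.05 in DESeq2 (27 members). All 59 points lie above 0, and all but AT5G59240 (2.22) lie below 1.

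The head and the rest of the subunit had nearly the same median. The 27 head genes had a median log2 fold change of 0.53, with 18 at an unadjusted p under 0.05 and 12 called by DESeq2. For the 32 tested body and platform genes the median was 0.52, with 21 and 15. Over all tested genes the median was −0.0091. Of all genes, 12.1% were higher at an unadjusted edgeR p under 0.05, and DESeq2 called 5.5% higher.

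Among head families, S3, a protein of the mRNA entry site, was higher in all 3 paralogs. AT3G53870, on chromosome 3 between positions 19951424 and 19953018 (TAIR10.1, plus strand), had 63.7, 67.8 and 72.5 CPM in WT and 100.1, 119 and 118 CPM in *nol12-4*. Every mutant library was above every WT library, and the log2 fold change was 0.72 ± 0.15 (standard error; edgeR adjusted p = 0.0735, DESeq2 adjusted p = 0.000751). The other S3 paralogs, AT2G31610 and AT5G35530, had log2 fold changes of 0.59 and 0.41 and did not overlap between genotypes either, and DESeq2 called the first of them.

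S17, a eukaryote-specific protein of the head, had 4 paralogs that all lay above WT in each mutant library. AT3G10610 read 14.3, 17.01 and 12.9 CPM in WT and 27.8, 28.8 and 23.9 CPM in *nol12-4*. This was the largest log2 fold change of the head, 0.86 ± 0.16 (edgeR adjusted p = 0.0639, DESeq2 adjusted p = 0.000612). The other 3, AT2G04390, AT2G05220 and AT5G04800, share 95.8 to 97.7% of their coding bases, and 69.5, 72.0 and 98.3% of their 75-base exon words occur in no other gene. The log2 fold changes of AT2G04390 and AT2G05220, 0.61 and 0.53, are therefore uncertain as values of single genes. That of AT5G04800, 0.60, rests on words that are nearly all its own, and AT3G10610 has no shared word.

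S18 sits where the head meets the large subunit, and its 3 paralogs had unlike estimates. *PFL* (AT1G22780), named for the pointed first leaves of its mutant, had 59.8, 61.7 and 62.8 CPM in WT and 91.5, 96.9 and 94.8 CPM in *nol12-4*. Both groups were tight and far apart, with a log2 fold change of 0.62 ± 0.13 (edgeR adjusted p = 0.0735, DESeq2 adjusted p = 0.000338). AT1G34030 was 0.45 higher and was called by DESeq2 (adjusted p = 0.0279). *RPS18C* (AT4G09800), which encodes the same protein family, had 131, 133 and 166 CPM in WT and 142, 148 and 164 CPM in *nol12-4*, so the genotypes overlapped. Its log2 fold change of 0.077 ± 0.17 was the lowest of the 59 (edgeR adjusted p = 0.826). It was 0.19 without WT replicate 3 and −0.049 with offsets for GC content and length. Per kilobase of exons, *RPS18C* was the most abundant of all 60 members in WT, at 179 ± 24.4 CPM per kb (SD, n = 3).

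In S19, a head protein whose loss causes Diamond-Blackfan anaemia in human, the minor paralogs had higher estimates than the lead. AT5G61170 had 30.4, 34.6 and 28.3 CPM in WT and 50.5, 55.3 and 58.4 CPM in *nol12-4*. No library of one genotype reached the other, and the log2 fold change was 0.82 ± 0.14 (edgeR adjusted p = 0.0617, DESeq2 adjusted p = 0.000107). AT5G15520 stood at only 5.22 ± 0.28 CPM in WT and 8.24 ± 1.00 CPM in *nol12-4* and was 0.66 higher on the log2 scale. The lead AT3G02080 read 66.8, 65.2 and 88.1 CPM in WT and 86.2, 92.9 and 106 CPM in *nol12-4*. Its WT replicate 3 lay above *nol12-4* replicate 1, and the estimate was 0.37 ± 0.18 with no call by either tool.

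Of the tRNA-contacting head families, S5 and S16 were near the middle or low end of the range with all libraries in the fit. *RPS5B* (AT2G37270) was 0.62 higher and called by DESeq2 (adjusted p = 0.00331), while its more abundant partner *RPS5A* (AT3G11940, also known as *AML1*) had an estimate of 0.39 with overlapping genotypes. The S16 pair, AT2G09990 and AT5G18380, had estimates of 0.39 and 0.32, neither at an unadjusted p under 0.05; their coding bases are 98.2% identical. AT5G18380 had 89.7, 89.8 and 145 CPM in WT, and without WT replicate 3 the estimates of the pair were 0.48 and 0.59, both at an unadjusted edgeR p under 0.05, so the place of S16 rested on that library. In S15, whose tail reaches the decoding centre, the lead *RPS15* (AT1G04270) was 0.61 higher and called by DESeq2 (adjusted p = 0.00188). Its partner AT5G09510 had 40.8, 40.02 and 33.4 CPM in WT and 42.0, 37.7 and 49.1 CPM in *nol12-4*, an overlap, with an estimate of 0.17 ± 0.16 (0.086 without WT replicate 3).

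The remaining head families S10, S12 and S20 each held paralogs on both sides of the threshold or none past it. In S12, a protein of the beak of the head, AT2G32060 had 32.1, 37.2 and 31.2 CPM in WT and 52.4, 56.1 and 50.2 CPM in *nol12-4*. These libraries were well apart, and the log2 fold change was 0.66 ± 0.13 (edgeR adjusted p = 0.0735, DESeq2 adjusted p = 0.00214); AT1G15930 was at 0.38. Of the S10 paralogs none was called by DESeq2, and *RPS10B* (AT5G41520) had 93.5 CPM in *nol12-4* replicate 2 but 42.9 and 43.5 CPM in the other mutant libraries, within its WT range of 37.9 to 61.0 CPM. Its estimate of 0.32 was −0.16 without *nol12-4* replicate 2 and 0.53 without WT replicate 3. In S20 the DESeq2 call fell on AT3G47370 (log2 fold change 0.61), with AT3G45030 at 0.49 and the lead AT5G62300 at 0.35.

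In the body and platform, S8 held the highest estimate of all. AT5G59240, on chromosome 5 between positions 23902462 and 23903767 (TAIR10.1, minus strand), is a near-silent paralog with read counts of 14, 36 and 23 in WT and of 123, 141 and 76 in *nol12-4*. In CPM it stood at 0.20, 0.54 and 0.34 in WT and at 1.67, 2.41 and 0.98 in *nol12-4*, so that every mutant library was above every WT library. The log2 fold change was 2.22 ± 0.50, a ratio of 4.67 (edgeR adjusted p = 0.0870, DESeq2 adjusted p = 0.000853), the largest of all members and also the one with the largest standard error. The lead AT5G20290 had 149, 149 and 215 CPM in WT and 178, 288 and 228 CPM in *nol12-4*. WT replicate 3 lay above *nol12-4* replicate 1 here, and the estimate was 0.43 ± 0.25 (0.25 without *nol12-4* replicate 2). Because the lead supplied 99.7% of the S8 level per length in WT and 99.1% in *nol12-4*, the near-silent paralog added little to the family.

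S6, the ribosomal protein that S6 kinase phosphorylates downstream of TOR, had a pair of similar level per length in WT (111 ± 10.15 and 108 ± 16.3 CPM per kb) and unlike levels in *nol12-4* (198 ± 23.1 and 141 ± 11.7). *RPS6* (AT4G31700) read 127, 145 and 122 CPM in WT and 223, 265 and 214 CPM in *nol12-4*. The lowest mutant library was far above the highest WT library, and the log2 fold change was 0.83 ± 0.17 (edgeR adjusted p = 0.0735, DESeq2 adjusted p = 0.000229). *EMB3010* (AT5G10360) had 119.6, 115 and 151 CPM in WT and 154, 167 and 182 CPM in *nol12-4*. Its genotypes were apart by a narrow margin, at 0.38 ± 0.17, and neither tool called it. In WT replicate 3 *RPS6* was at its lowest and *EMB3010* at its highest WT value. The share of *RPS6* in the pair overlapped between genotypes, at 51.7, 56.0 and 45.1% in WT and 59.3, 61.6 and 54.3% in *nol12-4*.

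S3a, a platform protein, is also a pair. AT3G04840 had 131, 149 and 129 CPM in WT and 214, 254 and 212 CPM in *nol12-4*, with a log2 fold change of 0.73 ± 0.16 (DESeq2 adjusted p = 0.000962). Here the genotypes were clearly separate. AT4G34670 had 108, 112 and 181 CPM in WT and 125, 185 and 177 CPM in *nol12-4*, so that WT replicate 3 sat among the mutant libraries and the estimate was 0.28 ± 0.26. Without WT replicate 3 it was 0.56 for AT4G34670, against 0.69 for AT3G04840, so the gap between these paralogs rested largely on that library.

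Sa, S14 and S15a each had a paralog near the top of the range. Sa, the p40 protein, is encoded by *P40* (AT1G72370), with an estimate of 0.68, and by the minor gene *RPSAb* (AT3G04770), which read 2.89, 2.02 and 2.61 CPM in WT and 3.99, 4.29 and 5.16 CPM in *nol12-4*. Both were called by DESeq2, and *RPSAb* was 0.84 ± 0.22 higher. In S14, a platform protein near the mRNA exit, the least abundant paralog AT3G52580 had 19.2, 19.4 and 18.6 CPM in WT and 29.3, 34.0 and 32.7 CPM in *nol12-4*. With this narrow WT spread its log2 fold change of 0.75 ± 0.13 had the smallest edgeR p of all members (edgeR adjusted p = 0.0617, DESeq2 adjusted p = 0.000134). The other S14 paralogs, AT2G36160 and AT3G11510, were at 0.47 and 0.48 without a DESeq2 call. In S15a, AT5G59850 was 0.73 higher and called by DESeq2, against 0.43 for *RPS15AD* (AT3G46040; 0.67 without WT replicate 3) and 0.33 for *RPS15A* (AT1G07770).

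S4 was the most even family with more than a pair of genes. Its paralogs AT2G17360, AT5G07090 and AT5G58420 had log2 fold changes of 0.55, 0.53 and 0.63, did not overlap between genotypes and were all called by DESeq2. S11 spanned 0.47 to 0.70 and the S13 pair 0.48 to 0.51. In these DESeq2 called *EMB1080* (AT3G48930, S11) and *RPS13A* (AT4G00100, S13, also named *PFL2*). In S9, at the mRNA entry site, the lead AT5G15200 was at 0.53 and the minor AT5G39850 at 0.69, the latter called by DESeq2.

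S7 had unlike estimates with all libraries in the fit. AT1G48830 and AT5G16130 were 0.51 and 0.52 higher and both called by DESeq2, while AT3G02560 had 92.8, 93.8 and 119 CPM in WT and 103, 103 and 121 CPM in *nol12-4*. The WT and mutant ranges of this paralog overlapped, and its estimate of 0.10 ± 0.17 was the second lowest of all members. Without WT replicate 3 it was 0.23 ± 0.15.

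S2 and S21 had no DESeq2 call. In S2, at the mRNA entry channel, the lead AT2G41840 had 52.9, 46.2 and 78.2 CPM in WT and 55.7, 97.2 and 62.7 CPM in *nol12-4*. WT replicate 3 exceeded 2 of the 3 mutant libraries, and the estimate of 0.28 ± 0.28 was −0.0016 without *nol12-4* replicate 2 and 0.53 without WT replicate 3. In S21, a small protein beside Sa, AT3G53890 had an estimate of 0.61 ± 0.26 with *nol12-4* replicate 1 at 72.8 CPM and the other mutant libraries at 40.8 and 46.7 CPM, against WT libraries of 27.1 to 42.8 CPM; without *nol12-4* replicate 1 the estimate was 0.33. AT5G27700 had 20.99, 21.1 and 16.8 CPM in WT and 27.4, 19.1 and 22.4 CPM in *nol12-4*, an overlap, with an estimate of 0.23 ± 0.18 (0.12 without WT replicate 3).

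AT1G59359, an S2 gene, was the member that was not tested. It had 4, 4 and 0 counts in WT and 1, 0 and 0 counts in *nol12-4*. In the reference 0 of its 1140 exon words of 75 bases are unique, since AT1G58684 and AT1G58983 carry the same sequence, and reads that align to more than 1 place were not counted. Its low count therefore says nothing about its expression. AT1G58380 (*XW6*), a further S2 gene with 80.8% unique words, had an estimate of 0.51 ± 0.26, with *nol12-4* replicate 2 at 12.9 CPM and the other mutant libraries at 6.97 and 7.05 CPM (0.16 without that library). For 52 of the 60 members every 75-base word was unique.

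**Figure D3:**
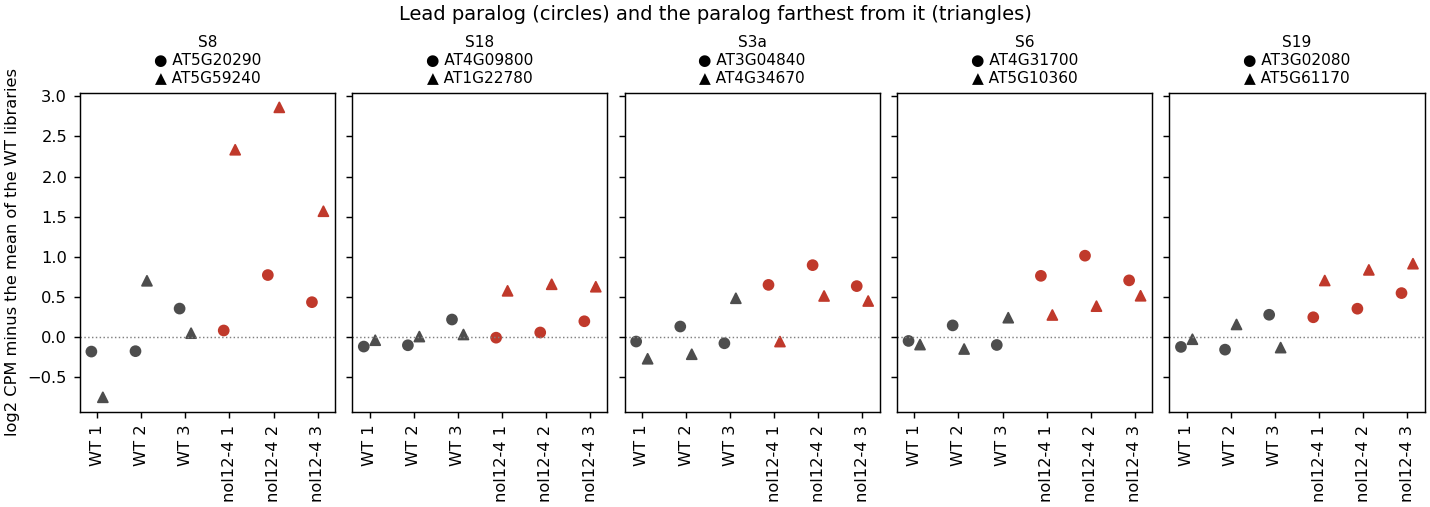
For the 5 families with the widest range of log2 fold change, the lead paralog (circles) and the paralog farthest from it (triangles) are drawn in each library as log2 CPM minus the WT mean (grey WT, red *nol12-4*). In S18 the circles of the 3 *nol12-4* libraries (−0.007 to 0.20) stay within the WT range while the triangles (0.58 to 0.66) do not; in S8 the triangles reach 1.57 to 2.86.

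Read as family totals, the changes spanned a narrower range than those of single paralogs, as sums over paralogs tend to. The summed CPM per kb of a family was higher in *nol12-4* in all 23 families, by 0.31 (S18) to 0.68 (Sa) on the log2 scale with a median of 0.51. In 18 families (78.3%) the totals of the genotypes did not overlap, all with *nol12-4* above WT; 14.5% of single genes lay above WT in this way, and no such share exists for totals of other families. In counts added after the data had been seen, the totals of 22 families did not overlap without WT replicate 3, against 22.2% of single genes, and without any other library those of 18 to 20. Sa stood at 99.2 ± 8.41 CPM per kb in WT and 159 ± 22.9 in *nol12-4*, S6 at 219 ± 11.3 and 339 ± 23.4, and S17 at 115 ± 11.1 and 177 ± 24.4 (mean ± SD, n = 3 each). S7, with the low estimate of AT3G02560, stood at 215 ± 5.22 CPM per kb in WT and 278 ± 4.44 in *nol12-4*. The 5 families with overlapping totals were S2, S8, S10, S16 and S21.

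The lead paralog of a family, the one with the highest WT level per length, had a lower mean share of the family in *nol12-4* in 14 families and a higher one in 9. In most of these the libraries overlapped. The shares did not overlap in 6 families, in 4 of them lower and in 2 higher in *nol12-4*. Of all tested single genes, 14.5% lay above and 11.6% below WT without overlap, and no such share exists for lead paralogs of other families. The count alone therefore does not set these families apart. With 3 libraries against 3, an exact permutation p cannot go below 0.1, the value of each of these 6 (two-sided). The largest shift was in S18, where *RPS18C* held 52.3, 52.4 and 58.7% of the summed level in WT and 45.4, 46.2 and 48.0% in *nol12-4*. This was 7.91 percentage points less, and *PFL* held 24.2% in WT and 30.0% in *nol12-4*. In S19 the lead AT3G02080 held 67.9% in WT and 61.4% in *nol12-4*, and AT5G61170 28.7 and 34.8%. In S20 AT5G62300 held 56.9 and 53.3%. The lead had the higher share in *nol12-4* in S21, where AT3G53890 held 63.7 and 69.5%, and in S3, where AT3G53870 held 36.6 and 40.2%. Without WT replicate 2 the number of families that did not overlap was 11, and without *nol12-4* replicate 3 it was 12; fewer libraries can only keep or raise this number.

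**Figure D4:**
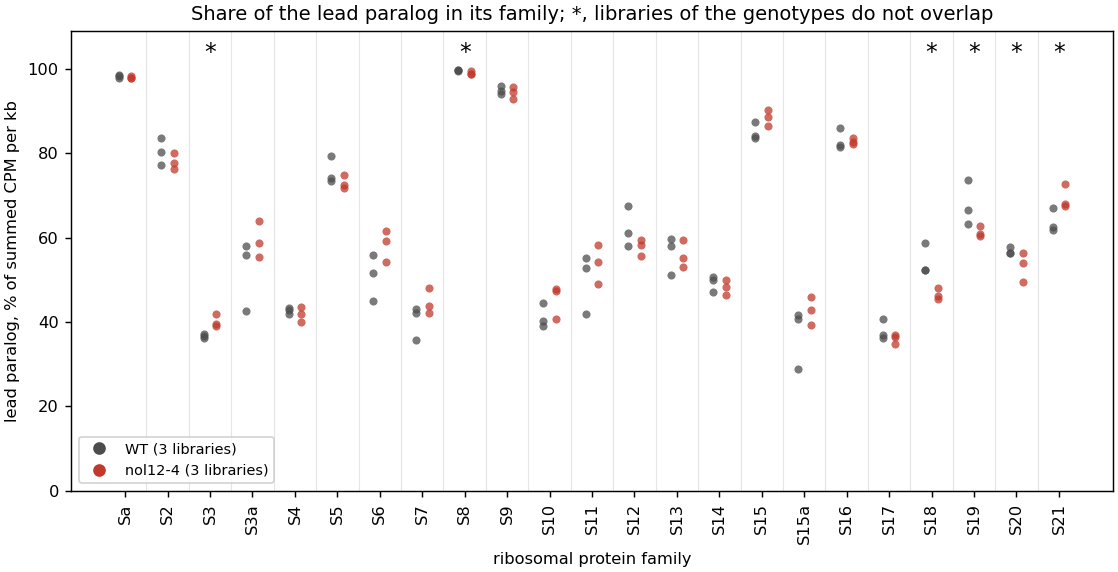
The share of the lead paralog in the summed CPM per kb of its family (vertical axis, percent) is drawn for the 23 families (horizontal axis), with 3 grey WT points and 3 red *nol12-4* points each. Asterisks mark the 6 families in which the libraries of the genotypes do not overlap (S3, S8, S18, S19, S20 and S21); the largest shift, in S18, is 7.91 percentage points.

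The 50 members above 20 CPM per kb in WT had a median log2 fold change of 0.51 and the 9 below it 0.67, where the WT values enter both the level and the change. The deviation varied with gene length, unlike from library to library. In *nol12-4* replicate 1 the median deviation from WT was 0.55 for the 19 shortest members (up to 915 bases of exons) and 0.37 for the 19 longest (1180 bases or more), in replicate 2 it was 0.57 and 0.75, and in replicate 3 it was 0.55 and 0.54. WT replicate 3 read −0.064 and 0.083. With offsets for GC content and length fitted per library, the member median was 0.38 in place of 0.52, and 35 members were at an unadjusted p under 0.05 (against 11.9% of all genes). The median of all tested genes was −0.032 with these offsets, in place of −0.0091.

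**Figure D5:**
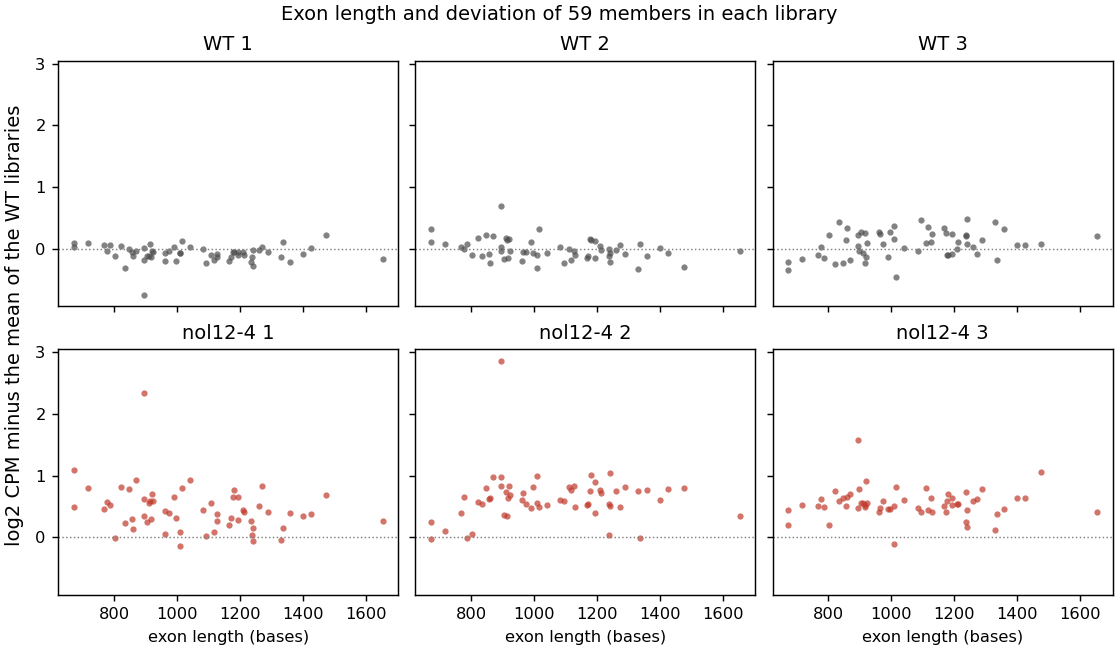
Each panel is 1 library (grey WT, red *nol12-4*) and each point 1 of the 59 tested members, with exon length in bases on the horizontal axis and log2 CPM minus the WT mean on the vertical axis. The points of *nol12-4* replicate 1 are higher among short genes (median 0.55 for the 19 shortest, 0.37 for the 19 longest), those of replicate 2 among long genes (0.57 and 0.75), and all 3 mutant panels lie mostly above 0.

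The promoters of these genes hold known sequence elements of ribosomal protein genes more often than promoters at large. The 250 bases before the annotated start (RefSeq, TAIR10.1) were searched on both strands for the telo box, AAACCCTA or TAGGGTTT, and for site II, TGGGCC or TGGGCT and their other strands GGCCCA and AGCCCA. A site II element was found in 37 of 60 member promoters (61.7%), against 19.2% of 27443 promoters of the same length, and a telo box in 10 (16.7%), against 4.49%. Both were found in 7 (11.7%, against 1.36%). Medians of members with and without an element were close: the median log2 fold change was 0.51 for the 36 tested members with site II and 0.54 for the 23 without, and it was 0.50 with and 0.53 without a telo box.

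The last 150 bases before the start are shown for 7 members with higher and lower estimates. They run 5′ to 3′ in the direction of transcription, with telo box and site II letters in capitals. These members are a selection and not the most and least changed of the 59, and AT3G53870 and AT3G02560 belong to different families. Where TGGGCC and GGCCCA overlap they form 1 longer run of capitals. The S8 pair comes first, the near-silent gene with the highest estimate and its lead.
AT5G59240 (S8, chr5:23903768-23903917, minus strand): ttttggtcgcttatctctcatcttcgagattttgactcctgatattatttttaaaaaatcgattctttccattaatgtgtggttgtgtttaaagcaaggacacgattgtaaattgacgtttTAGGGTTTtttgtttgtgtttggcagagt
AT5G20290 (S8, chr5:6853107-6853256, minus strand): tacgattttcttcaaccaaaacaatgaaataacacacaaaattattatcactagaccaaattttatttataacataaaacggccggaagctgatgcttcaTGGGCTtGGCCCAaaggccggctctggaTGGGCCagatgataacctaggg
AT1G22780 (*PFL*, S18, chr1:8067714-8067863, plus strand): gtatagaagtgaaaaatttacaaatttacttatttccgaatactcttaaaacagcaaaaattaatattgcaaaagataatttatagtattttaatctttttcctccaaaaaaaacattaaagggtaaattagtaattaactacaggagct
AT4G09800 (*RPS18C*, S18, chr4:6173562-6173711, plus strand): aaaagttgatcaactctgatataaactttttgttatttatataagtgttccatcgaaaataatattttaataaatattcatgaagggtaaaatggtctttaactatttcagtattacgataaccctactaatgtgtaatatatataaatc
AT3G53870 (S3, chr3:19951274-19951423, plus strand): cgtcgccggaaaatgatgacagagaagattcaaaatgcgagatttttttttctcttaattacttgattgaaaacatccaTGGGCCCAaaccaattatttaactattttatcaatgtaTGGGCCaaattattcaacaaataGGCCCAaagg
AT3G02560 (S7, chr3:541558-541707, plus strand): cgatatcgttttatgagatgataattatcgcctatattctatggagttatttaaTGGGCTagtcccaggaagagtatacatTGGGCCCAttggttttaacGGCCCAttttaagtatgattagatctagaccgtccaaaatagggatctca
AT5G27700 (S21, chr5:9808514-9808663, minus strand): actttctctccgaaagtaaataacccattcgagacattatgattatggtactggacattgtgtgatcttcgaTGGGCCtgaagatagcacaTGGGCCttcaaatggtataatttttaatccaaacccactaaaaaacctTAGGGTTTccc
The high AT5G59240 carries a telo box and no site II, and its lead 3 site II matches. Neither S18 promoter holds any of these letters, though *PFL* and *RPS18C* had log2 fold changes of 0.62 and 0.077. AT3G53870 and AT3G02560 hold 4 matches of site II each, with log2 fold changes of 0.72 and 0.10, and AT5G27700 holds both elements with 0.23. A match is a run of letters and not a shown binding site.

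The other genes of the cytosolic ribosome were mostly higher as well. Of all tested genes, 49% had an estimate above 0, and 12.1% were higher and 7.91% lower at an unadjusted edgeR p under 0.05. DESeq2 called 5.5% of all genes higher and 2.85% lower, and edgeR 0.226% and 0.0691%. Of the other 40S proteins (S23 to S30 and RACK1, 29 genes), 28 were tested and all 28 had a higher estimate (median 0.59 on the log2 scale), 15 at an unadjusted p under 0.05 and 12 called by DESeq2; edgeR called 0. The near-silent *RPS23A* (AT3G09680), named here after its values had been seen, had counts of 11, 1 and 4 in WT and 70, 70 and 61 in *nol12-4*, the highest estimate of that list (3.63 ± 0.68, edgeR adjusted p = 0.0663, DESeq2 adjusted p = 8.27e-06). RACK1, a scaffold protein on the 40S head, was higher in all 3 paralogs (0.77 to 0.90). Among 200 tested genes whose annotated product names a large-subunit protein, 167 were higher and 33 lower, with a median of 0.40 and 88 and 4 at an unadjusted p under 0.05. DESeq2 called 53 of them higher and 1 lower. edgeR called 1 higher and 0 lower, and this was AT3G28500, an acidic protein of the large subunit, with 6, 19 and 6 counts in WT and 240, 269 and 230 in *nol12-4* (log2 fold change 4.55 ± 0.52, edgeR adjusted p = 0.0315; also named after its values had been seen). That keyword list also takes in some proteins of organelle type, and lower genes are among them, such as AT1G70190 (L7/L12 domain, −0.036). How many of the 33 lower genes are of this kind was not counted. The counts and the median of this list are therefore not those of the cytosolic large subunit alone. Of 10 further paralogs of the member families, which are rare or silent, 4 were tested, of which 3 were higher, and AT1G58983 (S2) was lower at −3.36 from 0.33 ± 0.15 CPM in WT, with no unique word. DESeq2 called AT1G58983 lower (adjusted p = 0.0306) and edgeR did not (adjusted p = 0.138). Its counts were 28, 29 and 10 in WT and 1, 5 and 0 in *nol12-4*.

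The genes of TOR signalling and ribosomal stress did not share the direction. Of 8 tested, 3 had a higher and 5 a lower estimate, with a median of −0.29. *S6K2*, a kinase of S6, was the one that DESeq2 called (adjusted p = 0.0262), at 70.1, 49.1 and 32.9 CPM in WT and 17.3, 16.6 and 34.0 CPM in *nol12-4*, a log2 fold change of −1.16 with overlapping libraries. *S6K1* had an estimate of 0.71 ± 0.29. *NAC082*, a mediator of the response to ribosomal stress in plants, had an estimate of −0.34 ± 0.14. All 3 *nol12-4* libraries lay below WT for *NAC082*, *TOR* (−0.32 ± 0.15) and *TCP20* (−0.38 ± 0.16), as for 11.6% of all genes. Neither tool called any of these.

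Markers of cell division were higher beside the 40S genes, and those of root and leaf were less clear. Among all genes, 12.1% were higher at an unadjusted edgeR p under 0.05, edgeR called 0.226% higher and DESeq2 5.5%. The 11 dividing cell markers (B-type cyclins, B-type CDKs, *KNOLLE*, *AUR1* and *PCNA1*) all had a higher estimate, with a median of 1.06 and 10 at an unadjusted p under 0.05. edgeR called 1 of them, *KNOLLE* (1.09 ± 0.14, adjusted p = 0.0341), and DESeq2 10. Their summed level was 47.5 to 59.6 CPM in WT and 97.4 to 113 CPM in *nol12-4*. Of the root markers 7 of 8 tested had a higher estimate (median 0.57, 4 at an unadjusted edgeR p under 0.05, 0 called by edgeR and 2 by DESeq2) and the phosphate transporter *PHT1;1* a lower one (−0.50 ± 0.30). Their summed levels did not share the direction of the median, with overlapping values of 36.3 to 63.6 CPM in WT and 45.0 to 63.4 CPM in *nol12-4*, *NRT2.1* being at or near 0. Most of each sum came from *PHT1;1*, the single lower marker. It stood at 51.5, 47.6 and 23.1 CPM in WT and at 26.8, 34.2 and 25.4 CPM in *nol12-4*. All 9 leaf photosynthesis markers had a higher estimate (median 0.57, 0 called by edgeR or DESeq2, 4 at an unadjusted edgeR p under 0.05), with summed levels of 7549 to 12454 CPM in WT and 12344 to 18349 CPM in *nol12-4*. Of 10 clock genes 4 were higher and 6 lower, from −1.63 to 4.99. The part of dividing cells, of tissue makeup and of the time of sampling in the change of the 40S genes was not tested.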

How the data were processed

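Total RNA was depleted of rRNA and sequenced as stranded paired-end libraries. The authors aligned the reads to TAIR10 with HISAT2 (version 2.0.4) and made counts for Araport11 genes by htseq-count (HTSeq version 0.6.0, reverse strand, minimum alignment quality 0); the deposited values are raw counts per gene for 6 libraries. Summary lines, 20.6 to 25.0% of read pairs, were left out. Counts were compared by genotype alone with edgeR (version 4.0.16; TMM, filterByExpr, robust quasi-likelihood test, two-sided) in R (version 4.3.3) on all 21705 genes that passed the filter, with Benjamini-Hochberg adjustment at 0.05. Alternatives tried included DESeq2 (version 1.42.0), limma-voom (version 3.58.1), other scaling factors and filters, organelle genes left out, offsets for GC content and length (lowess span 0.3), a replicate block and leaving out each library. Median deviations of the members and the lists in each library, and correlations between libraries, use log2 CPM with a prior count of 2. Deviations of single members, in the figures and by gene length, use log2 CPM with no prior count. Shares of a family use CPM per kb of exons. Positions, exon lengths, coding identity, unique 75-base words and promoters come from RefSeq's TAIR10.1; 99.2% of identifiers matched. The procedure was tested on simulated counts. Library values were given for the 6 highest and 6 lowest estimates, the 6 smallest p, the widest families, the highest and lowest level and the untested gene. Counting error alone allows up to 0.040 to 0.053 CPM at 0 counts (a floor of 3). The member list rests on gene identifiers alone, but it and the other lists were proposed with earlier results of these data known.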

Additional observations from a re-analysis of the deposited data

How the results depend on the processing

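The member median of 0.52 was 0.38 with GC and length offsets and 0.38 with the replicate block and these offsets. The median of all genes in these fits was −0.032 and −0.027. When a library was left out, the member median ranged from 0.49 to 0.59. With library size alone the median of all genes was 0.092 and that of the members 0.62. In place of 0 members, DESeq2 called 27 and library size alone 6, and leaving out a library gave 0 to 7 in edgeR and, in fits added after the data had been seen, 7 to 40 in DESeq2 (7, 13 and 40 without WT replicates 1, 2 and 3; 16, 10 and 24 without *nol12-4* replicates 1, 2 and 3). Members higher at an unadjusted p under 0.05 numbered 39 (12.1% of all genes were), and 28 to 49 when a library was left out. In those fits 1816 to 3019 of all 21962 to 22170 tested genes were higher at this threshold. Families whose lead share did not overlap numbered 6 to 12 when a library was left out (11 without WT replicate 2, 12 without *nol12-4* replicate 3), against 6. Of 1003 alternative values of single members, 999 kept the direction. The others were AT2G41840 (−0.0016) and AT5G41520 (−0.16) without *nol12-4* replicate 2 (0.53 for both genes without WT replicate 3), and AT4G09800 with offsets (−0.049) and with the replicate block and offsets (−0.036). The cause was not tested. Libraries of the same number did not deviate together (correlations of 0.16, −0.11 and 0.035), so the numbers do not pair them. With the replicate block edgeR called 0 members, with 41 higher at an unadjusted p under 0.05 (against 11.8% of all genes).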
